A study of Mus musculus with 2 samples.

Results

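Tcf7-positive CD8 T cells were examined among the immune cells of brains bearing GL261, a mouse glioma line. The cells were chosen by their own Tcf7 reads: a cell counted as a member if it passed a gate for non-cycling CD8 T cells without Havcr2 and held at least 1 Tcf7 UMI, a UMI being 1 counted RNA molecule. That rule gave 182 cells, 58 from the wild-type library and 124 from the library labelled Fcgr2b knockout. They were taken from 1067 gated CD8 T cells (317 and 750) and 12478 cells in all (3657 and 8821). The other 885 gated cells (259 and 626), which held no Tcf7 UMI, served as the comparison and are called Tcf7-zero. The gate asked for a Cd3d, Cd3e or Cd3g UMI and a Cd8a or Cd8b1 UMI, no Cd4 and no Foxp3 UMI, at most 2 UMIs each of Lyz2 and C1qb, at most 1 UMI of Mki67, Top2a and Birc5 together, at most 1 of Gzmc and Gzmf together, and no Havcr2 UMI.

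Both groups of mice, wild type and Fcgr2b knockout, received 200 µg of an antibody against PD-1 on days 10, 13 and 16 after the tumour cells were injected, and the brains were taken on day 20. Fcgr2b encodes the inhibitory Fc gamma receptor. Cells of 5 brains per genotype were pooled, sorted for the leukocyte marker CD45.2 and exclusion of the dead-cell dye 7-AAD, and made into 1 single-cell 5′ library per genotype. Sex, age and strain of the mice are not given, no group went without anti-PD-1, and which part of Fcgr2b is deleted is not stated. With 1 library per genotype no difference could be tested, so intervals are exact 95% intervals for counting error only, and neither cells nor the 2 libraries were treated as replicates.

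Tcf7 encodes TCF-1, a DNA-binding protein of the Wnt pathway that T cells carry when they are naive, in resting memory, or in the stem-like state that sustains a chronic response. TCF-1 acts together with its relative LEF-1 (Lef1), and cells with both usually keep receptors for recirculation through lymph nodes and hold little granzyme. In tumours and chronic infection, the stem-like cells that proliferate after PD-1 blockade are described as TCF-1-positive cells that also carry PD-1 (Pdcd1) and the receptor SLAMF6, whereas naive and resting memory cells carry TCF-1 with little or no PD-1. In the GRCm38 genome Tcf7 (ENSMUSG00000000782) spans positions 52252371 to 52283014 of chromosome 11 on the minus strand, Lef1 (ENSMUSG00000027985) positions 131110471 to 131224356 of chromosome 3 on the plus strand, and S1pr1 (ENSMUSG00000045092) positions 115710433 to 115715072 of chromosome 3 on the minus strand.

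The libraries differed in more than the genotype label. The knockout-labelled library was deeper, with a median of 4224 UMIs per cell against 2686 in the wild-type library. Among cells with a Cd3 UMI, 44.7% held a UMI of a T cell receptor beta variable gene (Trbv) in the former and 11.7% in the latter, while Trbc1 or Trbc2, the constant part of the same transcript, was seen in 74.9% and 86.7%. Fcgr2b stood at 116 CPM (counts per 1000000 UMIs) over all cells of the knockout-labelled library and at 62.3 CPM in the wild type, and in the members at 17.6 CPM (9 UMIs) and 0 UMIs. Its level goes against the label, but the 2 libraries held unlike mixtures of cells. Macrophages and monocytes (at least 5 Lyz2 UMIs and no Cd3 UMI), whose marker list includes Fcgr2b, were 281 of 3657 wild-type cells and 2055 of 8821 in the other. A 5′ read outside the deleted part would also check nothing, so directions between the libraries rest on the labels. The molecule extracted is also given differently, polyA RNA for wild type and total RNA for the other. The 2 libraries shared 46 cell barcodes, and 2 members had a barcode that also occurred in the other library. What these differences contributed to the ratios between libraries was not tested.

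The Tcf7-positive share of the gate did not differ between the libraries beyond counting error. They were 58 of 317 gated cells, or 18.3% (14.2 to 23.0%), in the wild-type library and 124 of 750, or 16.5% (13.9 to 19.4%), in the knockout-labelled library. The ratio of the 2 shares was 0.904, with an approximate interval of 0.681 to 1.20. After each gated cell was thinned to 1500 UMIs the shares were 11.3% (31 of 274, 7.82 to 15.7%) and 10.3% (72 of 699, 8.15 to 12.8%), with 43 and 51 shallower cells left out. As a share of all cells the members were 1.59% and 1.41%. Cells that should lack the gene gave a background: a Tcf7 UMI was found in 3 of 281 macrophages and monocytes (1.07%, median 3713 UMIs) and in 22 of 2055 (1.07%, median 5681 UMIs). It was found in 0 of 77 B cells, which by a floor of 3 counts allows a share of up to 3.90% (exact upper limit 4.68%), and in 0 of 138, which allows up to 2.17% (exact upper limit 2.64%). The members had a median of 3087.5 and 3587.5 UMIs. After thinning to 1500 UMIs the macrophage shares were 0.379% and 0.0993%, against the 11.3% and 10.3% of the gate.

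**Figure D1:**
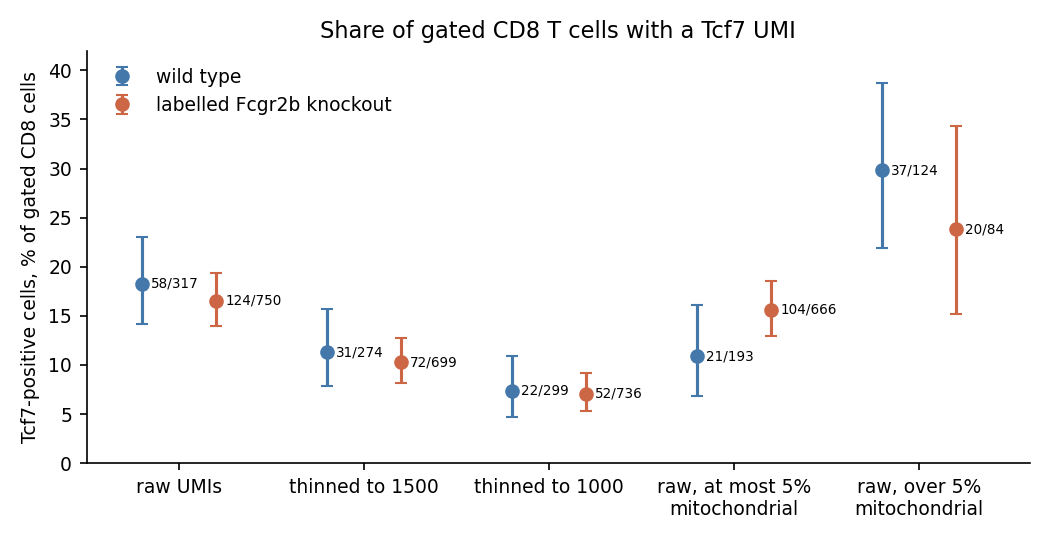
Tcf7-positive cells as a percentage of gated CD8 T cells in each library (points; bars are exact 95% binomial intervals; cells over gated cells beside each point), from raw UMIs, after thinning each cell, and in cells below and above 5% mitochondrial UMIs. The libraries overlap in every setting, with 18.3% and 16.5% from raw UMIs, and both shares are higher in the cells above 5% mitochondrial UMIs.

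Mitochondrial reads moved with membership. The members had a median of 5.51% mitochondrial UMIs in wild type and 3.72% in the knockout-labelled library, and the Tcf7-zero cells 4.11% and 2.92%. Among cells with at most 5% mitochondrial UMIs the Tcf7-positive share was 10.9% (21 of 193, 6.86 to 16.2%) and 15.6% (104 of 666, 12.9 to 18.6%). Among cells above 5% it was 29.8% (37 of 124, 22.0 to 38.7%) and 23.8% (20 of 84, 15.2 to 34.3%). The members of the wild-type library therefore came mostly from the cells with more mitochondrial reads, 37 of 58, and those of the other library did not, 20 of 124. Mitochondrial percentage is a common sign of RNA quality, and its part in the differences between the groups was not tested.

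Most members rested on few Tcf7 molecules. Exactly 1 Tcf7 UMI was found in 35 and 65 cells, 2 in 18 and 43, and 3 or more in 5 and 16, with a highest value of 6 and 8. Just outside the threshold lie the Tcf7-zero cells, some of which may hold Tcf7 RNA that was not captured. In the wild-type library Gzmb, which encodes the cytotoxic protease granzyme B, stood at 1494 CPM in cells with 0 Tcf7 UMIs, 480 CPM at 1 UMI and 124 CPM at 2 or more. In the knockout-labelled library it stood at 1270, 421 and 165 CPM. The lymph node homing receptor gene Ccr7 stood at 74.1, 135 and 745 CPM in the first library and at 88.0, 212 and 222 CPM in the second. Cells with a single Tcf7 UMI were thus between the others in the first 3 of these series, and close to those with 2 or more for Ccr7 in the knockout-labelled library.

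The 3 other genes given as markers of these cells did not behave alike. Cd8a, which encodes the alpha chain of the CD8 co-receptor and is part of the gate, stood at 561 CPM in the members against 887 CPM in Tcf7-zero cells of the wild-type library, and at 433 against 705 CPM in the other. It was lower in the members of both libraries, with ratios of 0.632 (0.511 to 0.775) and 0.613 (0.531 to 0.706). Lef1 stood at 114 against 37.7 CPM and at 93.9 against 39.5 CPM. S1pr1, the receptor for sphingosine 1-phosphate that lets T cells leave tissues and lymph nodes, stood at 93.4 against 37.7 CPM and at 104 against 30.9 CPM. Both were higher in the members, Lef1 at ratios of 3.03 (1.66 to 5.46) and 2.38 (1.64 to 3.41) and S1pr1 at 2.48 (1.30 to 4.61) and 3.35 (2.31 to 4.85). A Lef1 UMI was found in 24.1% and 33.1% of the members against 9.65% and 11.8% of Tcf7-zero cells. After thinning to 1500 UMIs these shares were 18.2% and 17.5% against 7.76% and 7.08%. Lef1 and S1pr1 thus went with the label, while whether a cell was stem-like or memory could not be told from these markers.

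Across all genes, few differed by 2-fold or more between Tcf7-positive and Tcf7-zero cells. Levels were UMIs summed over the cells of a group as CPM, a gene was compared where the mean of its 2 levels was at least 50 CPM, and 2-fold means a log2 ratio of at least 1 or at most -1 after 10 CPM were added to each level. In the wild-type library 45 of 2939 genes were higher (1.53%) and 95 were lower (3.23%). In the knockout-labelled library 14 of 2711 were higher (0.516%) and 37 were lower (1.36%). Of 2489 genes compared in both, 8 were higher in both libraries (0.321%), 24 were lower in both (0.964%), and 0 were past 2-fold in opposite directions. At any size of ratio, 1630 of the 2939 genes were lower in the wild-type members and 1571 of the 2711 in the others, and the rest were higher. No test stands behind these counts, and the wild-type ratios rest on 58 members and 259 Tcf7-zero cells against 124 and 626 in the other library.

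The 8 genes higher in the members of both libraries were Ccr7, Myb, Actn1, Ikzf2, Klf2, S1pr1, Emb and Lef1. Ccr7 stood at 415 against 74.1 CPM in the wild type and at 217 against 88.0 CPM in the other, log2 ratios of 2.34 and 1.21. In the wild-type members 11 of its 80 UMIs came from 1 cell. Klf2, a transcription factor that keeps T cells quiescent and drives S1pr1, stood at 680 against 251 CPM and at 481 against 198 CPM, log2 ratios of 1.40 and 1.24. Myb, a transcription factor needed for stem-like CD8 T cells, gave 1.75 and 1.78, and Ikzf2, which encodes the zinc finger protein Helios, gave 1.39 and 1.38. For Ikzf2, 19 of the 80 UMIs in the wild-type members came from 1 cell. The actin cross-linker gene Actn1 gave 1.44 and 1.36, and Emb, which encodes the membrane glycoprotein embigin, gave 1.29 and 1.23. Without cells scored as doublets, with at most 5% mitochondrial UMIs, with at least 2 Tcf7 UMIs and under the other alternatives, all 8 kept their direction in both libraries.

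**Figure D2:**
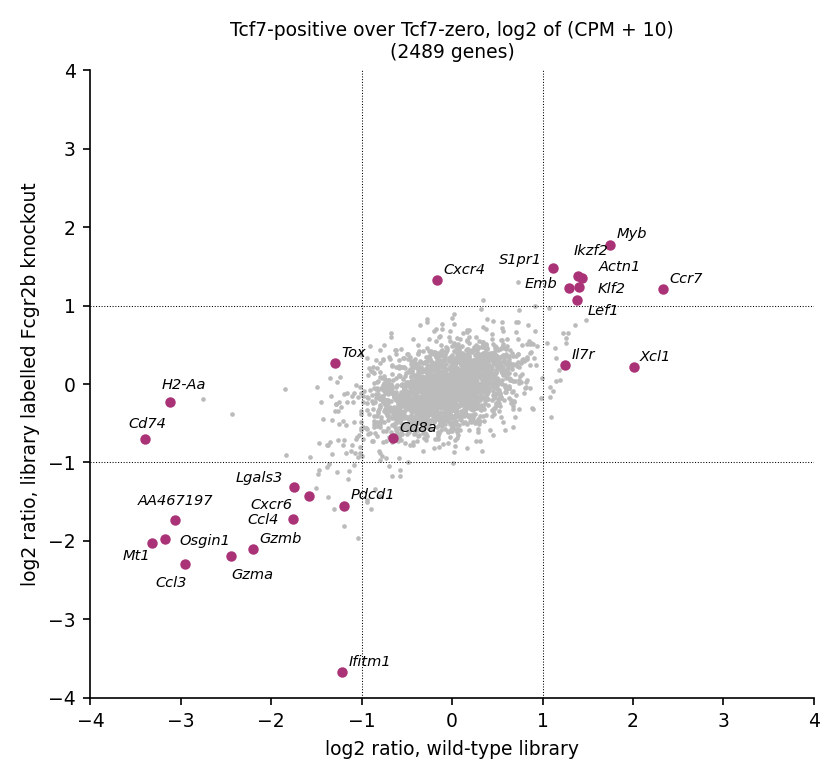
Log2 ratio of Tcf7-positive over Tcf7-zero cells for each gene compared in both libraries, with the wild-type library on the horizontal axis and the knockout-labelled library on the vertical axis (log2 of CPM + 10; dotted lines mark 2-fold). The 8 genes past 2-fold in both libraries lie at the upper right, led by Ccr7 at 2.34 and 1.21, and granzyme and chemokine genes lie at the lower left.

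Among quiescence and stemness regulators, 9 of 10 genes compared in the wild-type library and 10 of 11 in the other were higher in the members, 4 of them past 2-fold in each. The median log2 ratio of the list was 0.45 and 0.76, beside -0.05 and -0.06 over all genes compared. Satb1, a chromatin organiser of T cells, stood at 820 against 313 CPM and at 346 against 201 CPM. Id3, an inhibitor of E proteins carried by memory precursors, stood at 72.7 CPM (14 UMIs) against 9.10 CPM (7 UMIs) and at 43.1 against 18.5 CPM. In both libraries and for both genes the members were the higher group.

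Receptors of lymph node homing, egress and survival were split. Of 10 and 9 genes compared, 4 and 2 were past 2-fold higher and 0 were past 2-fold lower, but the median log2 ratio was -0.10 and 0.07, and its sign changed with the processing in both libraries. Il7r, the receptor chain for the survival cytokine interleukin 7, stood at 202 against 79.3 CPM and at 247 against 207 CPM. The log2 ratio of Il7r was 1.25 in wild type and 0.24 in the knockout-labelled library, whose Tcf7-zero cells were closer to its members. With at most 5% mitochondrial UMIs these ratios were 1.32 and 0.17, while that of Ccr7 in wild type moved from 2.34 to 1.59.

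At least 1 UMI of Lef1, Ccr7 or S1pr1 was found in 37 of 58 members (63.8%) of the wild-type library and 75 of 124 (60.5%) of the other. In Tcf7-zero cells the shares were 20.5% and 24.4%. After thinning to 1500 UMIs they were 47.3% and 41.7% against 15.5% and 15.5%. The members of the 2 libraries were close in this measure, and both stood well above the Tcf7-zero cells.

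Genes of naive T cells were sparse but higher in the members. Nsg2 stood at 119 CPM (23 UMIs) against 7.80 CPM (6 UMIs) in the wild type and at 43.1 CPM (22 UMIs) against 2.58 CPM (6 UMIs) in the other, ratios of 15.3 (6.06 to 45.9) and 16.7 (6.57 to 50.4). A UMI of it was found in 20.7% and 13.7% of the members and in 2.32% and 0.958% of Tcf7-zero cells. Of the list, 3 genes could be compared in wild type and 2 in the other, and each of these was higher in the members.

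Cytotoxic genes were lower in the members of both libraries. Of 16 and 17 genes compared, 14 and 16 were lower, 8 and 7 of them past 2-fold, and the median log2 ratio was -1.04 and -0.91. Gzmb stood at 317 against 1494 CPM and at 288 against 1270 CPM, ratios of 0.212 (0.161 to 0.274) and 0.227 (0.191 to 0.268). Gzma, another granzyme gene, stood at 374 against 2078 CPM and at 370 against 1730 CPM, although 71 of the 189 UMIs in the members of the knockout-labelled library came from 1 cell. Prf1, which encodes the pore former perforin, stood at 57.1 against 156 CPM and at 33.3 against 120 CPM. A Gzmb UMI was still found in 27.6% and 43.5% of the members, against 67.2% and 70.0% of Tcf7-zero cells.

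Chemokines and their receptors were lower too. In the wild-type library 7 of 7 genes compared were lower in the members, 6 past 2-fold, with a median log2 ratio of -1.47. In the other library 7 of 8 were lower, 3 past 2-fold, with a median of -0.81, and the exception was Cxcr4, the receptor for CXCL12, past 2-fold higher at a log2 ratio of 1.33 against -0.16 in wild type. Cxcr4 stood at 254 against 286 CPM in the wild type and at 305 against 116 CPM in the other, so that the Tcf7-zero level differed most between the libraries. Ccl5, a chemokine made by effector and memory CD8 T cells, stood at 1869 against 5190 CPM and at 6670 against 11212 CPM. Ccl3 stood at 20.8 CPM (4 UMIs) against 229 CPM and at 93.9 against 501 CPM, and Cxcr6, a chemokine receptor of CD8 T cells in tissue, at 104 against 330 CPM and at 112 against 318 CPM. The Ccl3 level of the wild-type members lies below the 31.9 CPM estimated for free RNA there.

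**Figure D3:**
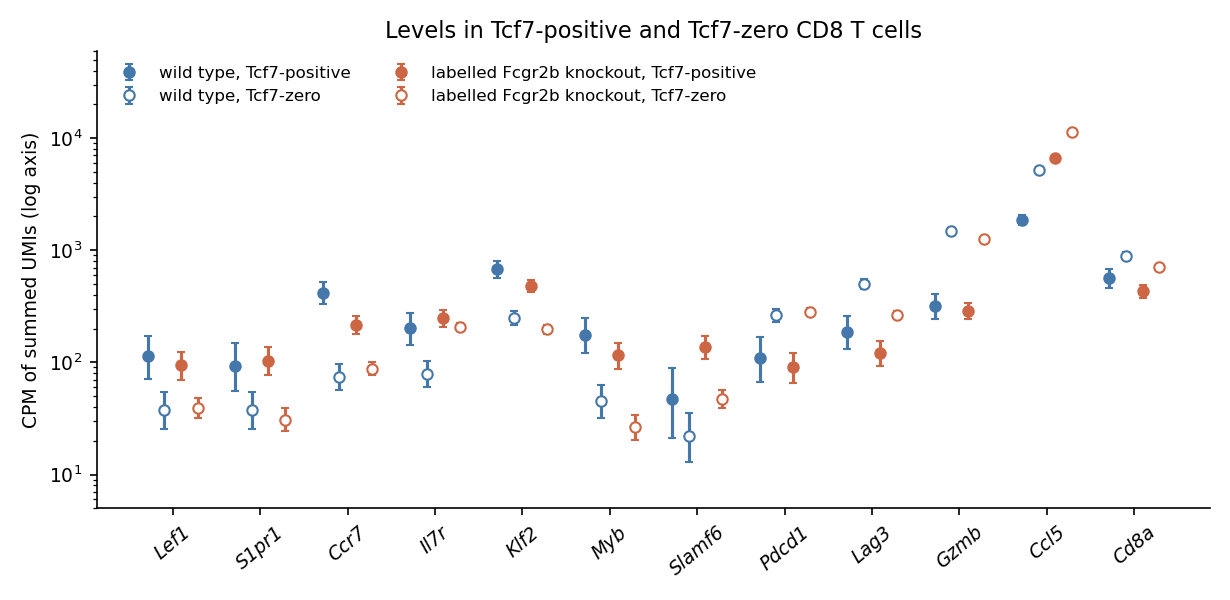
Levels of 12 genes in CPM (log axis) in Tcf7-positive cells (filled points) and Tcf7-zero cells (open points) of each library, with exact 95% Poisson intervals. Lef1, S1pr1, Ccr7, Klf2 and Myb are higher in the Tcf7-positive cells of both libraries, and Pdcd1, Lag3, Gzmb, Ccl5 and Cd8a are lower.

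Inhibitory receptors and other exhaustion genes were split. Of 10 and 9 genes compared, 7 and 7 were lower in the members, beside 1630 of 2939 and 1571 of 2711 over all genes. In each library 3 were past 2-fold lower, and the median log2 ratios were -0.54 and -0.48. Lag3, an inhibitory receptor that binds MHC class II, stood at 187 against 502 CPM and at 121 against 263 CPM. Tnfrsf9, the costimulatory receptor 4-1BB induced by antigen, stood at 104 against 250 CPM and at 39.1 against 162 CPM. Rgs16, a regulator of G protein signalling, stood at 176 against 519 CPM and at 188 against 487 CPM. Ikzf2, which belongs to the same list, was the 1 member past 2-fold higher in each library. Cells with a UMI of Havcr2, which encodes the exhaustion receptor TIM-3, were removed by the gate and are in neither group. Among cells that failed the gate on Havcr2 alone, a Tcf7 UMI was found in 1 of 87 (1.15%, 0.0291 to 6.24%) and 14 of 365 (3.84%, 2.11 to 6.35%), lower shares than inside the gate.

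Lists of glycolysis, translation, heat shock, residency and receptor signalling had at most 2 members past 2-fold in a library. Beside the counts of these lists, 1309 of 2939 and 1140 of 2711 genes were higher in the members over all genes compared, and 1630 and 1571 were lower. Glycolysis genes were lower in the members for 8 of 9 and 7 of 8 genes compared, at medians of -0.67 and -0.46, and Gapdh stood at 633 against 1013 CPM and at 681 against 985 CPM. Translation factor genes were higher for 7 and 8 of 10, at medians of 0.15 and 0.11, with Eef1b2 at 1303 against 840 CPM and at 1212 against 970 CPM. Ribosomal protein genes took 29.4% and 30.8% of the members' UMIs and 23.0% and 26.0% of those of Tcf7-zero cells. Heat shock genes were lower for 7 of 7 in each library, 2 and 0 of them past 2-fold, at medians of -0.70 and -0.27. Tissue residency genes were lower for 4 of 6 and 4 of 5, beside 1630 of 2939 and 1571 of 2711 over all genes. Of these residency genes 0 and 1 were past 2-fold, and the medians were -0.56 and -0.51. T cell receptor signalling genes, with medians of -0.15 and -0.28, had 0 genes past 2-fold.

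Of the 10 genes most clearly lower in both libraries, several lie outside these lists. Mt1, a metallothionein gene, stood at 15.6 CPM (3 UMIs) against 246 CPM and at 25.4 CPM (13 UMIs) against 135 CPM. Osgin1, an oxidative stress response gene, stood at 5.19 CPM (1 UMI) against 127 CPM and at 15.7 CPM (8 UMIs) against 91.1 CPM, ratios of 0.0407 (0.00102 to 0.232) and 0.172 (0.0733 to 0.345). AA467197 and Lgals3, which encodes galectin 3, were lower at log2 ratios of -3.06 and -1.73 and of -1.74 and -1.31. Ifitm1, an interferon-induced membrane protein gene, was lower at -1.21 and -3.67, but 112 of its 2193 UMIs in Tcf7-zero cells of the knockout-labelled library came from 1 cell. The remaining 5 were Ccl3, Gzma, Gzmb, Ccl4 and Cxcr6, of which Ccl4 gave -1.76 and -1.73.

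The genes that separate stem-like cells in a chronic response from resting ones gave a mixed picture. Pdcd1 (ENSMUSG00000026285, chromosome 1, 94038305 to 94052553, minus strand) stood at 109 CPM in the members against 263 CPM in Tcf7-zero cells of the wild-type library, and at 90.0 against 283 CPM in the other. The ratios were 0.415 (0.251 to 0.652) and 0.318 (0.231 to 0.429). Slamf6 (ENSMUSG00000015314, chromosome 1, 171917515 to 171953170, plus strand) stood at 46.7 CPM (9 UMIs) against 22.1 CPM and at 137 against 47.2 CPM, ratios of 2.11 (0.830 to 5.01) and 2.90 (2.12 to 3.95). Pdcd1 was thus lower and Slamf6 higher in the members of the knockout-labelled library, and for Slamf6 the interval of the wild-type library includes 1. The mice had received anti-PD-1, and these values are of Pdcd1 RNA only.

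By cell, a Pdcd1 UMI was found in 17 of 58 members (29.3%, 18.1 to 42.7%) of the wild-type library and 28 of 124 (22.6%, 15.6 to 31.0%) of the other, against 41.7% and 44.9% of Tcf7-zero cells. A Slamf6 UMI was found in 7 of 58 (12.1%, 4.99 to 23.3%) and 43 of 124 (34.7%, 26.4 to 43.7%), against 5.41% and 14.2%. In the wild-type library 37 members held neither, 14 only Pdcd1, 4 only Slamf6 and 3 both. In the knockout-labelled library 68 held neither, 13 only Pdcd1, 28 only Slamf6 and 15 both. Cells with neither UMI were the largest class in both libraries, which at this depth does not show that they lacked the RNA. After thinning to 1500 UMIs, Pdcd1 was found in 20.0% (10.4 to 33.0%) and 10.8% of the members, against 25.1% (19.5 to 31.4%) and 27.5% of Tcf7-zero cells. Slamf6 was found in 3.64% and 19.2%, against 3.20% and 7.77%, and 1 of 55 and 3 of 120 members held both. At this depth the wild-type intervals of members and Tcf7-zero cells overlapped for both genes.

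**Figure D4:**
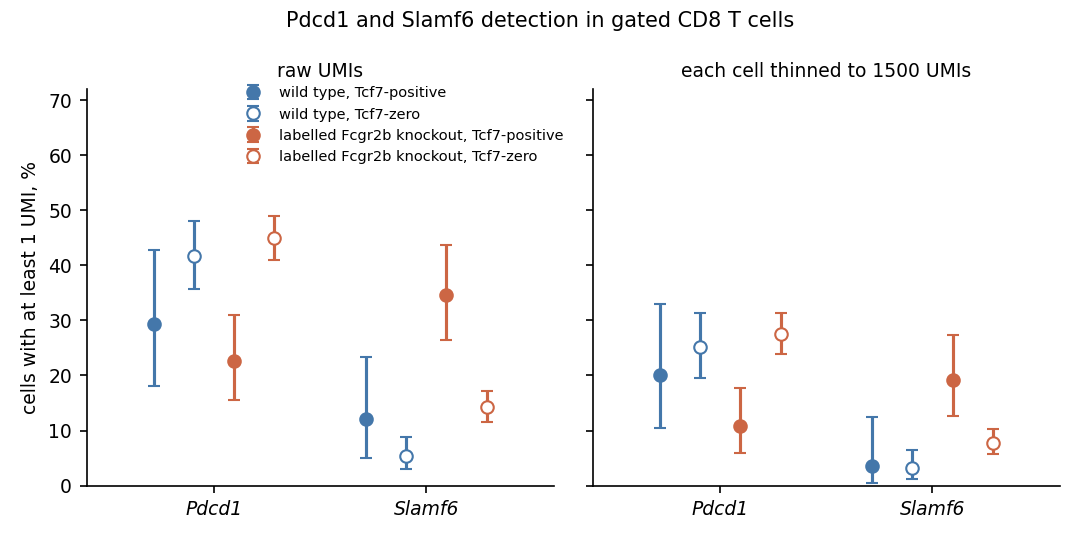
Percentage of cells with at least 1 Pdcd1 or Slamf6 UMI among Tcf7-positive (filled) and Tcf7-zero (open) cells of each library, with exact 95% binomial intervals, from raw UMIs (left) and after thinning each cell to 1500 UMIs (right). From raw UMIs Pdcd1 was found in 29.3% and 22.6% of the Tcf7-positive cells and in 41.7% and 44.9% of the Tcf7-zero cells, and Slamf6 in 12.1% and 34.7% against 5.41% and 14.2%.

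In the knockout-labelled library, Slamf6 was found in 15 of 28 members with Pdcd1 (53.6%) and 28 of 96 without it (29.2%). Cells with Pdcd1 were deeper, with a median of 4483 UMIs, and those with both had a median of 5687 against 3414 in cells with neither. After thinning to 1500 UMIs, Slamf6 was found in 3 of 13 members with Pdcd1 and in 20 of 107 without it, so the raw contrast was not seen at equal depth on these few cells. In the wild-type library the counts from raw UMIs were 3 of 17 and 4 of 41, too few to compare. The part of depth in the joint detection was not tested.

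Members with a Pdcd1 UMI carried more RNA of other exhaustion genes than members without. Lag3 stood at 383 against 98.0 CPM in the wild type and at 243 against 75.5 CPM in the other, ratios of 3.91 (1.90 to 8.41) and 3.22 (1.89 to 5.51). Rgs16 gave ratios of 3.57 (1.71 to 7.76) and 1.89 (1.23 to 2.89). Il7r went the other way, at 66.7 CPM (4 UMIs) against 264 CPM and at 143 against 286 CPM. Over the exhaustion list, 7 of 9 and 7 of 7 genes compared were higher, beside 1704 of 2913 and 1734 of 2750 over all genes, with medians of 0.51 and 0.73 beside 0.13 and 0.15. In the knockout-labelled library Tox, which encodes a transcription factor of exhausted T cells, gave 4.86 (2.30 to 10.8), Eomes, a T-box factor of memory and exhausted cells, 3.25 (1.78 to 5.99), Klf2 0.425 (0.287 to 0.612) and Satb1 0.416 (0.258 to 0.642). In the wild type, on 17 and 41 cells, Tox gave 1.47 (0.306 to 6.21), Eomes 0.982 (0.221 to 3.52) and Klf2 1.01 (0.678 to 1.47), and Satb1 stood at 700 against 874 CPM. Klf2 and Satb1 belong to the list of quiescence and stemness regulators. Of that list 5 of 14 genes compared were higher in wild type and 9 of 12 in the other, at medians of -0.42 and 0.09. Of the homing, egress and survival receptors, which include Il7r, 1 of 9 and 6 of 10 were higher, at medians of -0.25 and 0.12. Whether the libraries differ in these values could not be tested.

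Markers of other cells moved with this split too. Of the CD4 and regulatory T cell genes, 2 of 2 compared were higher in Pdcd1-positive members in each library, at medians of 1.29 and 1.27. Il2ra, the interleukin 2 receptor alpha chain also induced on activated CD8 T cells, gave 5.16 (1.86 to 16.4) in wild type and 1.41 (0.519 to 3.55) in the other. Cst3 in the knockout-labelled library stood at 586 against 151 CPM, a ratio of 3.88 (2.73 to 5.55), with 67 of the members' 138 UMIs in 1 cell. Cd79a stood there at 8 against 0 UMIs, all 8 in 1 cell, and Il17a, of the gamma-delta list, also at 8 against 0 UMIs. Over the macrophage list 3 of 4 genes compared were higher in wild type and 2 of 5 in the other. The 1 gamma-delta gene compared in wild type gave a log2 ratio of 3.66. Of 2 NK cell genes compared there, 1 was higher. Fcer1g, of the NK cell list, gave ratios of 3.68 (1.21 to 12.3) in wild type and 0.196 (0.0226 to 0.781) in the other. The part of other cells in the Pdcd1 split was not tested.

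RNA of homing and egress genes was also found in Pdcd1-positive members. A UMI of Lef1, Ccr7 or S1pr1 was found in 8 of 17 (47.1%) and 15 of 28 (53.6%), beside 29 of 41 (70.7%) and 60 of 96 (62.5%) of members without Pdcd1. Ccr7 stood at 367 against 437 CPM and at 257 against 202 CPM, ratios whose intervals include 1.

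Members with a Slamf6 UMI were set beside the other members at 43 against 81 cells in the knockout-labelled library and at 7 against 51 in wild type. For the former, Gzmb stood at 161 against 373 CPM, a ratio of 0.431 (0.283 to 0.640), and Ccl5 at 4789 against 7934 CPM, a ratio of 0.604 (0.560 to 0.650). Ikzf2 stood at 224 against 81.8 CPM, a ratio of 2.74 (1.65 to 4.65), and S1pr1 at 146 against 75.3 CPM, a ratio of 1.94 (1.09 to 3.50). Cd27, a costimulatory receptor kept on memory and stem-like cells, gave 1.81 (1.11 to 2.99) and Pdcd1 gave 2.32 (1.24 to 4.45). Effector genes went both ways there. Of 16 cytotoxic genes compared 11 were lower, beside 1218 of 2666 over all genes. In contrast, Ccl3 gave 2.98 (1.59 to 5.81) and Klrg1, a receptor of terminal effector cells, 4.47 (1.11 to 25.7) on 9 and 3 UMIs. Gzma stood at 463 against 308 CPM, on 95 and 94 UMIs, a large part of which came from 1 cell, as given above. In wild type the ratios were 1.11 (0.427 to 2.45) for Gzmb, 0.823 (0.320 to 1.78) for Ikzf2 and 0.505 (0.0121 to 3.22) for S1pr1, on 7, 7 and 1 UMIs in the Slamf6-positive members, each with an interval that includes 1. Ccl5 was lower there as well, at 0.478 (0.284 to 0.759) on 19 UMIs, and Lag3 was higher, at 4.29 (1.96 to 8.92), beside 0.819 (0.464 to 1.41) in the knockout-labelled library. Over all genes in the wild-type split, 797 of 3060 were past 2-fold higher and 257 were past 2-fold lower. In the knockout-labelled library 43 and 39 of 2666 were. Ccl5 was thus lower in Slamf6-positive members of both libraries, and for Gzmb, Ikzf2 and S1pr1 the wild-type counts are too few to show a difference.

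Other genes of progenitor exhausted cells differed between the libraries. Xcl1, the chemokine that draws cross-presenting dendritic cells, stood at 145 against 28.6 CPM in the wild-type library, a ratio of 5.08 (2.80 to 9.32), and at 135 against 115 CPM in the other, a ratio of 1.18 (0.890 to 1.54). Its level in the members was close in both libraries, and it was the Tcf7-zero level that differed. Tox stood at 51.9 CPM (10 UMIs) against 142 CPM and at 66.5 against 53.7 CPM. Over the list, 1 of 5 and 4 of 6 genes compared were higher in the members, at medians of -0.46 and 0.24, the latter with another sign at a minimum level of 200 CPM.

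T cell receptor variable gene use could be compared only in the knockout-labelled library, because a Trbv UMI was found in 6 of 58 members of the wild-type library (10.3%) and 49 of 124 members of the other (39.5%). Among members with a single leading gene, Trbv13-3 was the most frequent, in 7 of 46 (15.2%, 6.34 to 28.9%). Among Tcf7-zero cells it was found in 79 of 260 (30.4%, 24.9 to 36.4%). The top 3 genes covered 34.8% of the members and 53.8% of the Tcf7-zero cells, and the effective number of genes, 1 over the sum of squared shares, was 12.2 and 7.21. With 16 distinct genes in 46 cells and 20 in 260, the members spread over more genes per cell, a measure that sampling of few cells also moves. No clonotype sequences were used here.

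Markers of other cell types were sized over whole lists in the members. Macrophage and microglia genes summed to 576 CPM in the members and 1087 CPM in Tcf7-zero cells of the wild-type library, and to 953 and 1224 CPM in the other, with C1qc, Csf1r, Fcgr3, Adgre1 and Fcgr2b at 0 in the wild-type members and all 12 detected in the knockout-labelled members. Dendritic cell genes summed to 119 and 774 CPM and to 769 and 1188 CPM, and the defining genes Xcr1, Clec9a, Siglech and Cd209a were at 0 in the members of both. A UMI of at least 1 dendritic cell gene was found in 24.1% and 78.2% of the members, and UMIs of at least 2 such genes in 3.45% and 33.9%, beside 3.86% and 30.7% of Tcf7-zero cells. B cell genes summed to 119 and 82.2 CPM in the members against 63.7 and 67.0 CPM in Tcf7-zero cells, with Ms4a1, Pax5 and Iglc2 at 0 in both groups of members. NK cell genes summed to 187 and 131 CPM against 178 and 232 CPM, CD4 and regulatory T cell genes to 317 and 229 CPM against 403 and 359 CPM, and gamma-delta T cell genes to 72.7 and 48.9 CPM against 94.9 and 52.4 CPM. Sox2, Olig1 and Gfap, of glioma and neural cells, were at 0 in all 4 groups. Of the members, 2 and 3 cells were scored as doublets.

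Between libraries, more genes were past 2-fold in the members than in the Tcf7-zero cells, which held more UMIs. In the members, 57 of 2764 genes were past 2-fold higher in the knockout-labelled library (2.06%) and 86 were lower (3.11%). In Tcf7-zero cells, 20 of 2903 were higher (0.689%) and 40 were lower (1.38%). The median log2 ratio over all genes was -0.11 in the members and -0.12 in Tcf7-zero cells. With median-of-ratios scaling, which sets that median near 0, the split became 89 higher and 59 lower in the members and 27 and 28 in Tcf7-zero cells. In the members 1 UMI is 5.19 CPM in wild type and 1.96 CPM in the other library, against 1.30 and 0.430 CPM in Tcf7-zero cells. Counting error is therefore larger in the members, and its part in their higher number of genes past 2-fold was not tested. The ratios below rest on 1 library each and carry the differences in depth, mitochondrial reads and receptor detection given above.

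The genes higher in the members of the knockout-labelled library included chemokine and interferon response genes. Ccl5 stood at 1869 CPM in the wild-type members and at 6670 CPM in the others, a ratio of 3.57 (3.20 to 3.99), and at 5190 and 11212 CPM in Tcf7-zero cells, a ratio of 2.16 (2.09 to 2.23). All 7 chemokine and chemokine receptor genes compared were higher in the members, beside 1119 of 2764 over all genes, at a median of 0.81. Over the 13 alternatives this median ranged from 0.18 to 0.95. In Tcf7-zero cells 4 of 7 were higher and 3 lower, beside 1099 of 2903 higher over all genes, at a median of 0.55. Isg15, an interferon-induced ubiquitin-like protein gene, stood at 140 and 388 CPM, a ratio of 2.77 (1.84 to 4.30), although 28 of the 198 UMIs came from 1 cell, and at 221 and 284 CPM in Tcf7-zero cells. Xaf1, another interferon-induced gene, stood at 57.1 and 155 CPM. Of 10 interferon response genes compared in the members, 9 were higher at a median of 0.31, beside 1119 of 2764 over all genes at -0.11. In Tcf7-zero cells 6 of 8 were higher at a median of 0.24, beside 1099 of 2903 over all genes at -0.12. In members with at most 5% mitochondrial UMIs the median of the list was -0.01.

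Of the 10 highest, Cd74 and Cst3 are genes of antigen-presenting cells. Cd74, the MHC class II invariant chain, stood at 15.6 CPM (3 UMIs) in the wild-type members and at 282 CPM in the others, and in the latter the level estimated for free RNA was 774 CPM, above what was measured. H2-Eb1, an MHC class II chain below the level needed for the 10, was at 0 UMIs in the wild-type members and at 127 CPM in the others, at least 8.17-fold higher against a floor of 3 counts, where free RNA was estimated at 291 CPM. Cst3, which encodes cystatin C of macrophages, stood at 83.0 and 270 CPM, with 67 of the 138 UMIs of the latter in 1 cell, where free RNA was estimated at 239 CPM. These free RNA levels use the median over 11 macrophage genes, 0.0832 of the level in the whole library, and the single genes ranged from 0.00704 to 0.513, so the estimate is loose. Cst3 is itself among the 11, so its estimate was not independent of its own level. The part of free RNA in these differences was not tested.

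Some of the remaining genes of the highest 10 were also higher in Tcf7-zero cells, and Jun was not. S100a10, which encodes a partner of annexin A2, stood at 374 and 1182 CPM in the members and at 577 and 1521 CPM in Tcf7-zero cells. Edf1, a transcriptional coactivator gene, gave log2 ratios of 1.70 and 1.06, Taf10, a subunit of TFIID, 1.42 and 0.75, and Rnasek 1.19 and 0.85. Jun, an AP-1 subunit gene induced by stimulation and by tissue dissociation, stood at 223 and 517 CPM in the members, a log2 ratio of 1.18, and at 387 and 414 CPM in Tcf7-zero cells, 0.09. Slamf6 was higher in both cell groups, at log2 ratios of 1.37 and 0.83, as were the inhibitory receptor gene Tigit at 1.59 and 1.13 and the granzyme gene Gzmk at 1.66 and 1.41.

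**Figure D5:**
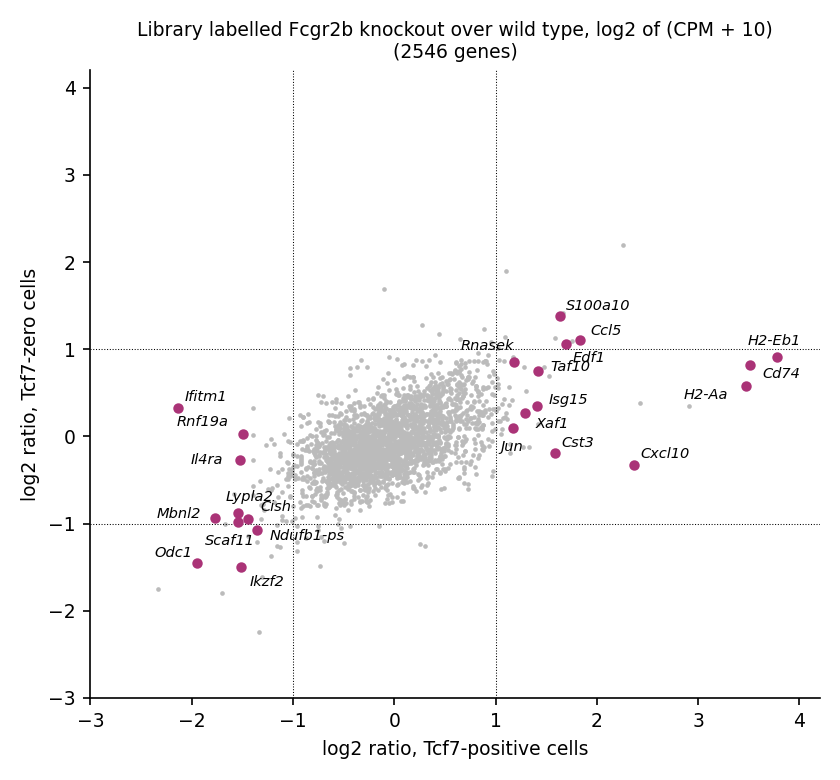
Log2 ratio between libraries (knockout-labelled over wild type) for each gene compared in both cell groups, in Tcf7-positive cells (horizontal axis) and in Tcf7-zero cells (vertical axis; log2 of CPM + 10; dotted lines mark 2-fold). Ccl5, S100a10 and Edf1 are past 2-fold in both groups at 1.83 and 1.11, 1.64 and 1.38, and 1.70 and 1.06, and Jun is past it in Tcf7-positive cells, at 1.18 against 0.09.

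Genes lower in the members of the knockout-labelled library included regulators of quiescence. Satb1 stood at 820 CPM in the wild-type members and 346 CPM in the others, a ratio of 0.422 (0.339 to 0.527), and at 313 and 201 CPM in Tcf7-zero cells. Ikzf2 stood at 415 and 139 CPM and, in Tcf7-zero cells, at 152 and 47.2 CPM, so that the log2 ratio was about the same in both, -1.51 and -1.50. Over the list of quiescence and stemness regulators 10 of 13 genes compared were lower, beside 1645 of 2764 over all genes, at a median of -0.40 beside -0.11. Over the 13 alternatives this median kept its sign but ranged from -0.49 to -0.000154. In Tcf7-zero cells the median of the list was -0.37. Ccr7 stood at 415 and 217 CPM in the members, a ratio of 0.523 (0.389 to 0.706), and at 74.1 and 88.0 CPM in Tcf7-zero cells. Lef1, at a ratio of 0.823 (0.487 to 1.43), and S1pr1, at 1.11 (0.640 to 2.01), had intervals that include 1. With at most 5% mitochondrial UMIs the log2 ratio was -0.32 for Ccr7, against -0.90 in all cells, and 1.17 for S1pr1, against 0.14. That setting also turned Lef1 to 0.31, from -0.26, and Myb to 0.45, from -0.57. Satb1 and Klf2 stayed lower under every alternative.

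The other genes among the 10 lowest were mostly lower in Tcf7-zero cells as well. Odc1, the first enzyme of polyamine synthesis, stood at 317 and 74.4 CPM in the members and at 269 and 91.9 CPM in Tcf7-zero cells. Mbnl2, a splicing regulator gene, gave log2 ratios of -1.77 and -0.94, Lypla2 -1.54 and -0.88, Scaf11 -1.54 and -0.98, Cish, a feedback inhibitor of cytokine signalling, -1.44 and -0.95, and Ndufb1-ps -1.36 and -1.07. Il4ra, the interleukin 4 receptor chain, stood at 317 and 104 CPM in the members, a ratio of 0.328 (0.222 to 0.481), and at 144 and 118 CPM in Tcf7-zero cells, a ratio of 0.815 (0.652 to 1.03). Rnf19a, a ubiquitin ligase gene, gave -1.49 and 0.03, and Ifitm1 gave -2.13 and 0.33, with 14 of its 61 UMIs in the wild-type members from 1 cell. For Il4ra, Rnf19a and Ifitm1 the members differed between libraries where the Tcf7-zero cells were closer, a difference that could not be tested with 1 library per genotype.

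Cytotoxic genes went both ways between libraries in the members. Of 15 compared, 1 was past 2-fold higher (Gzmk) and 2 were past 2-fold lower, Tnf at 83.0 and 25.4 CPM and the inhibitory receptor gene Klrc1 at 239 and 114 CPM. The log2 ratio of Tnf, -1.39, turned to 0.68 in cells with at most 5% mitochondrial UMIs. Gzmb stood at 317 and 288 CPM, a ratio of 0.909 (0.670 to 1.25), and Gzma at 374 and 370 CPM, a ratio of 0.990 (0.751 to 1.32). The median log2 ratio of the list was -0.02, with a sign that varied among the alternatives. Pdcd1 stood at 109 and 90.0 CPM, a ratio of 0.826 (0.483 to 1.46), and in Tcf7-zero cells at 263 and 283 CPM. For Gzmb, Gzma and Pdcd1 the gap between members and Tcf7-zero cells of a library was larger than the gap between libraries.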

How the data were processed

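The deposited files hold raw UMI counts of each gene in each barcode, made by the authors with Cell Ranger 6.1.2 per the file headers, on build mm10 (GRCm38) per the submitters' processing notes. The annotation release was not stated. The labels' sorting text mentions lung, although the tissue is labelled brain. GENCODE M21 coordinates matched 32158 of 32285 gene identifiers.

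Cells needed 200 or more genes and no more than 10% mitochondrial UMIs, the gate was applied to raw UMIs, and doublets were scored per library with Scrublet (0.8% per 1000 barcodes taken as doublets, 119 and 676 cells) but kept, as the rule has no doublet step; an alternative leaves them out. UMIs were summed per library and group. Total UMIs were 192659 and 510918 in members and 769046 and 2328270 in Tcf7-zero cells. Intervals are exact Poisson, Clopper-Pearson or conditional at 95%, and the share ratio interval is a log-normal approximation. Free RNA was sized per group from 11 macrophage genes. The ratio script was tested on simulated data. Analyses used Python 3.11.15, numpy 2.4.6, scipy 1.17.1, pandas 2.3.3 and scanpy 1.11.5.

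Named genes were, for members over Tcf7-zero cells, the 10 highest and 10 lowest past 2-fold in both libraries (8 higher were found), with at least 50 CPM and 10 UMIs. For the comparison of libraries they were the 10 highest and 10 lowest at 100 CPM or more. Mitochondrial, ribosomal, receptor, haemoglobin, predicted, sex-linked and gate genes were left out. Also named were Tcf7, Cd8a, Lef1, S1pr1, Pdcd1, Slamf6 and up to 4 members per list. Genes and lists beyond that rule, such as those of the Pdcd1 and Slamf6 split, Id3 and Nsg2 over Tcf7-zero cells, were picked after values were seen. The members and the 14 gene lists were chosen with earlier results of these data known. Alternatives varied doublets, thresholds, depth, scaling, added CPM and minimum level. Some members of the lists are not reported here by name.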

Additional observations from a re-analysis of the deposited data

Results flagged for a closer look

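For 2 genes named by the rule, the ratio of Tcf7-positive over Tcf7-zero cells pointed opposite ways in the 2 libraries, with counting intervals that did not include 1 in either. Isg15 had a log2 ratio of -0.62 in wild type and 0.43 in the knockout-labelled library, and kept both signs under each of the 13 alternatives run. In the knockout-labelled members 1 cell held a part of the Isg15 UMIs, as given above, and the ratio without that cell was not computed. Jun had -0.77 and 0.31, and the second became -0.05 when each cell was thinned to 1500 UMIs. In each case the difference between libraries was not tested, since each genotype has 1 library.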

How the results depend on the processing

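No paired analysis was possible because each genotype has 1 library, and for the same reason no replicate could be left out. Depth limits all values: 1 UMI is 5.19 CPM in the wild-type members and 1.96 CPM in the others. Counts of genes past 2-fold moved with the level filter, the CPM added and the number of cells, and are given in the order wild type higher and lower, knockout-labelled higher and lower, both higher and lower, and between libraries in members higher and lower. With at least 2 Tcf7 UMIs they were 116, 193, 32, 74, 14, 45, 133 and 227; with 50 CPM added 14, 36, 5, 19, 3, 12, 22 and 28; at 200 CPM or more 10, 21, 3, 12, 2, 9, 12 and 15; and with no level filter 326, 655, 63, 123, 25, 55, 488 and 478. With each cell thinned to 1500 UMIs, wild type gave 126 and 174, knockout-labelled 35 and 63, and between libraries 138 and 242. At most 5% mitochondrial UMIs gave 184 and 221 in wild type and 124 and 349 between libraries, and turned the log2 ratio between libraries of Nsg2 to 0.30 (from -1.29) and of Tnf to 0.68 (from -1.39). Between libraries, at least 2 Cd8a and Cd8b1 UMIs gave 87 and 147, and median-of-ratios scaling 89 higher. Without any Lyz2 or C1qb UMI, 24 genes were higher in members over Tcf7-zero cells of the knockout-labelled library. The Tcf7-positive share was 7.26% and 7.87% at 2 or more Tcf7 UMIs, 11.3% and 10.3% after thinning to 1500 UMIs, 7.36% and 7.07% at 1000 UMIs, 10.9% in wild type at most 5% mitochondrial UMIs, where the ratio of shares was 1.44, and 29.8% and 23.8% above 5%, a stratum chosen after seeing the data. Of 307 named-gene values, 301 stayed within their counting interval without doublet-scored cells and 253 with at most 5% mitochondrial UMIs. The cause of these moves was not tested.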
